A study of Schizosaccharomyces pombe with 6 samples.

Results

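The genes for pre-mRNA splicing factors of fission yeast, Schizosaccharomyces pombe, were followed in newly made RNA while the cells lost Spt5. This protein rides with RNA polymerase II and helps it through genes. The genes were taken from every transcription unit of the authors' table that holds a gene with a prp, cwf or lsm symbol followed by a number in the RefSeq annotation. This gave 51 genes in 51 of 5484 units: 21 prp, 22 cwf and 8 lsm genes. All 51 were among the 5208 units with enough reads to be tested. Each count covers the whole unit, and 6 of the 51 units hold another gene as well. By known role, 19 genes act in the early spliceosome (U1, U2AF, U2, the U4/U6.U5 tri-snRNP and the nuclear Lsm ring), 26 in the catalytic one (U5, the Prp19 complex, the RES complex and the step factors), and 4 in release of the products. The other 2, lsm1 and prp24, act in mRNA decay and in recycling of U6 snRNA. The unit contained at least 1 intron for 34 genes and none for 17.

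Each group was a pair of libraries from 1 strain, ASP167 (h-), sampled after 4.5 h of depletion, after 2.5 h, and at 0 h before it. In all 3 groups spt5 stood under Pnmt81, a promoter that thiamine shuts off, and Spt5 was tagged with V5 and IAA17, the degron that an auxin directs to destruction. The strain also carried skp1-OsTIR1 and skp1-AtTIR1-2NLS-9myc, the auxin receptors from rice and Arabidopsis, each under Padh15 at ade6, with ura4-D18. Thiamine and the auxin NAA were added at 0 h to cultures in EMM, a minimal medium, and RNA was labelled for 10 min with 5 mM 4-thiouracil, a base that marks newly made RNA for purification. The 0 h cells had received neither agent, and an untreated culture over the same hours was not analysed here, so that effects of time in culture, of NAA, of thiamine and of Spt5 loss cannot be told apart. No spike-in is named, so all levels are relative to the rest of the library. The labels call the libraries biological replicates, and nothing says whether 1 culture gave all 3 times.

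Splicing removes introns from a transcript in 2 chemical steps. U1 snRNP first marks the 5′ splice site, U2AF and U2 snRNP bind the 3′ end of the intron and the branch site, and the tri-snRNP then joins. Helicases drive out U1 and U4, the Prp19 complex and its partners hold the catalytic RNA core, and further helicases release the mRNA and take the spliceosome apart. The Lsm2 to Lsm8 proteins form a ring on the 3′ end of U6 snRNA, whereas Lsm1 replaces Lsm8 in a cytoplasmic ring that acts in mRNA decay. Many fission yeast genes have introns, which are short, and Spt5 travels with the polymerase while these introns are being removed.

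The libraries held 11525663 to 35673601 counts, and the 51 units took 0.489% to 0.633% of them. Levels are CPM, shares of the library's counts, scaled by TMM, a factor that evens out composition between libraries. spt5 itself had 1045 and 720.8 CPM at 0 h, 120.6 and 108.0 CPM at 2.5 h, and 98.2 and 92.3 CPM at 4.5 h. It fell at both times by the quasi-likelihood test of edgeR, adjusted by Benjamini-Hochberg over all 5208 units, the test behind every adjusted p here unless DESeq2 is named (log2 fold changes -2.95 and -3.21, adjusted p = 0.00468 and 0.00383). The 0 h libraries differed from each other more than the others did: of all tested units, 10.8% stood 2-fold or further apart in that pair, against 1.21% between the 2.5 h and 0.653% between the 4.5 h libraries.

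The introns below belong to 5 splicing factor genes that passed the test against 0 h and whose introns lie in the gene itself. lsm1, prp45, cwf7 and cwf29 also passed and have introns of their own, which are not shown. lsm4, prp3 and prp17 were higher at both times, cwf15 was higher at 4.5 h, and cwf19 was lower at 2.5 h. They are given 5′ to 3′ on the gene's strand from the RefSeq genome, build ASM294v3, at coordinates that are the same in the authors' table, whose build is ASM294v2. Capitals mark the first 6 bases, a word like the branch site, and the last 3 bases. The branch word is CTNAN with A or G at the inner N and C or T at the end, and CTAAC is one form of it.
lsm4 intron 1, chrII:3088853-3088890, minus strand: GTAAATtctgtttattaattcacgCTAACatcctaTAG
lsm4 intron 2, chrII:3088596-3088660, minus strand: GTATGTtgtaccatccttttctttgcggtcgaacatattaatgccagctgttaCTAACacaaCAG
prp3 intron 1, chrI:4404168-4404217, plus strand: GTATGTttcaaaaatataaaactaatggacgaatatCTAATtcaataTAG
prp3 intron 2, chrI:4404377-4404422, plus strand: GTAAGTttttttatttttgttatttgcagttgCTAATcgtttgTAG
prp3 intron 3, chrI:4405083-4405124, plus strand: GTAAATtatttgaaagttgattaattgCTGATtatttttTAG
prp3 intron 4, chrI:4405436-4405518, plus strand: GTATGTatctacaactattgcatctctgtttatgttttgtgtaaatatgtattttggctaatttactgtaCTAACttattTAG
prp17 intron 1, chrII:2651757-2651797, plus strand: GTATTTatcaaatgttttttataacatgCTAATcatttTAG
prp17 intron 2, chrII:2652563-2652601, plus strand: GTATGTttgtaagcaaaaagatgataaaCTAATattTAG
prp17 intron 3, chrII:2653218-2653260, plus strand: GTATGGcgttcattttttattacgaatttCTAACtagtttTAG
prp17 intron 4, chrII:2653309-2653347, plus strand: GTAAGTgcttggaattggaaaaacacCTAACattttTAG
cwf15 intron 1, chrII:1041900-1041958, minus strand: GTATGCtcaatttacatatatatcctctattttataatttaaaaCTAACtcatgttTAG
cwf19 intron 1, chrI:1102291-1102334, minus strand: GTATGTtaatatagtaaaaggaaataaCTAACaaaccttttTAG
cwf19 intron 2, chrI:1101980-1102022, minus strand: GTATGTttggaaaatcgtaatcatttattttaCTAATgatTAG
These introns are short and rich in A and T, and most begin with GTATGT or a near form and end in TAG. Across the 71 annotated introns of the 51 units the median length was 53 bases, against 56 bases for the 4699 annotated introns of other units. GTATGT opened 23.9% of the introns in the 51 units and 20.4% of the others, and TAG closed 76.1% and 69.0%. The branch word, searched through each intron on the gene's strand alone, was present in 87.3% of the introns in the 51 units and 77.0% of the others, and CTAAC was present in 47.9% and 45.8%. Both cwf19 introns, from the gene that fell, and 4 of the 10 lsm4, prp3 and prp17 introns, from genes that rose, begin with GTATGT. The cwf15 intron, from another gene that rose, begins with GTATGC. prp28, prp43 and 15 further genes have no intron in the unit, so introns were present and absent among genes that moved in either direction.

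Before depletion the splicing factor units stood at moderate levels. Their median level at 0 h was 34.9 CPM per kilobase of unit, against 42.7 CPM per kilobase over all coding units. prp10, the largest SF3b subunit of U2 snRNP, and prp2, the large subunit of U2AF, stood at the top with 105.6 CPM per kilobase each, followed by prp43, the helicase that takes the spent spliceosome apart, with 102.0. The 0 h libraries of these neighbours overlapped, so their order was not resolved. prp38, known in budding yeast as a tri-snRNP partner needed for activation, was lowest with 3.62 CPM per kilobase. The authors' deposited table also gives a half-life score per unit with no time unit, and the Lsm genes ranked high in it: their median stood at the 84.2nd percentile of coding units, with 6 of 8 above the middle, while the 51 genes had a median at the 46.3rd percentile. In that score the 34 genes in units with introns had a median at the 54.9th percentile and the 17 in units without introns at the 40.2nd.

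At 2.5 h 6 of the 51 splicing factor genes passed the test. lsm4, prp3, prp17 and the unit of 3 genes that holds cwf7 rose about as much as each other, 2.17-fold to 2.25-fold. prp43 and cwf19, both of the release stage, fell to 0.64 and 0.58 of 0 h. That is 4 of 51 higher and 2 of 51 lower, where 17.4% of all 5208 units were called, 12.3% higher and 5.11% lower, and 7.65% and 5.85% of coding units; the counts of the 51 genes lie near the shares of coding units. The median log2 fold change of the 51 genes was -0.09, against 0.01 over all units tested and -0.06 over coding units. The 2.5 h libraries lay above both 0 h libraries for 11 genes, below both for 18, and overlapped them for 22. This was not counted over all units, so these counts do not set the 51 genes apart. The number called depended on single libraries, and the share of all units called in such fits was not counted. Without 0 h replicate 1 the median of the 51 genes was -0.26, against -0.06 over coding units. Without 0 h replicate 2 it was -0.04, against -0.11 over coding units. The 6 called genes kept their direction with any 1 library left out. Their 2.5 h and 0 h values did not overlap, so such fits could hardly turn that direction and are no test of it.

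By 4.5 h more of the genes were higher. lsm4, lsm1, cwf15, prp28, prp17, prp3, prp45 and the unit that holds cwf7 were higher than at 0 h, by 1.54-fold to 2.62-fold. The unit that cwf29 shares with snx3 was lower, at 0.64 of 0 h. Thus 8 of 51 were higher and 1 lower, where 17.9% of all units were called, 10.1% higher and 7.8% lower, and 7.38% and 8.3% of coding units. The median log2 fold change was 0.21, against 0.02 over all units and -0.03 over coding units, and 38 of the 51 values were above 0. The 4.5 h libraries lay above both 0 h libraries for 27 genes and below both for 11, again with no such count over all units. The median fell to 0.05 without 0 h replicate 1 and was 0.17 to 0.27 with any other library left out. As at 2.5 h, the number called depended on single libraries. The comparisons of 2.5 h and of 4.5 h with 0 h share the 0 h libraries.

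**Figure D1:**
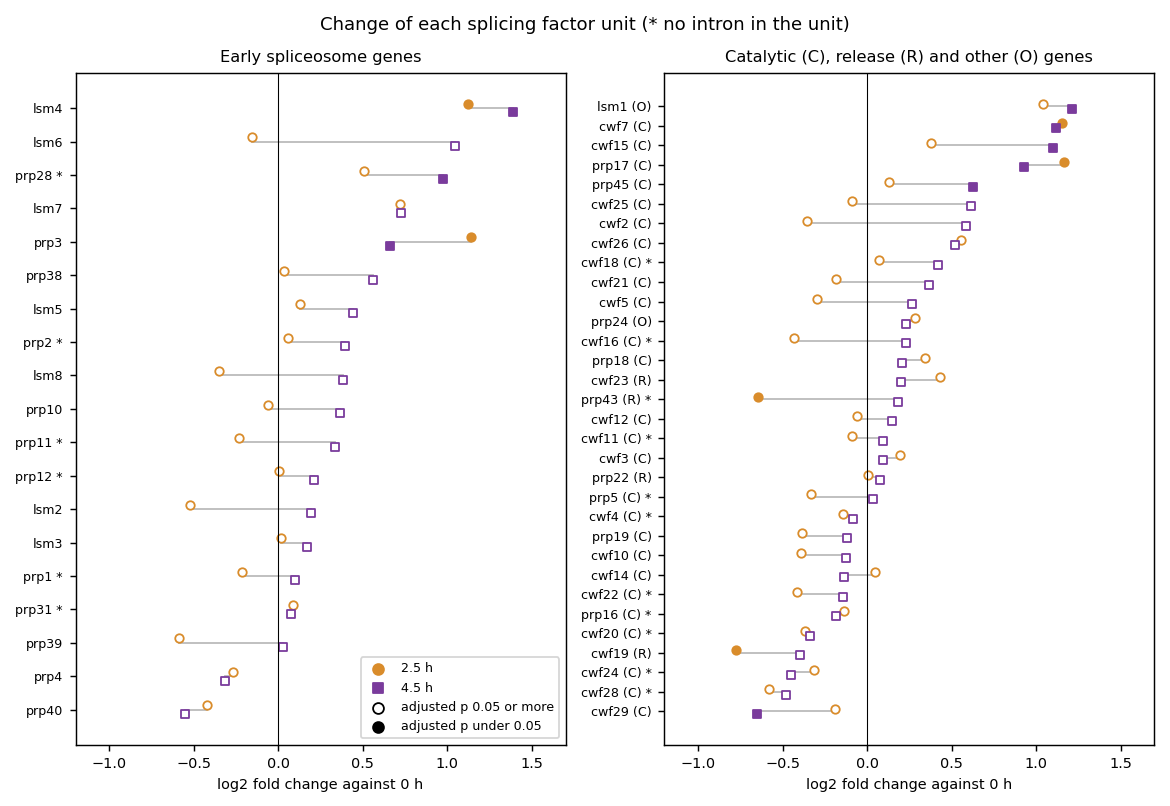
Log2 fold change of each of the 51 units at 2.5 h (circles) and 4.5 h (squares) against 0 h, by known role, sorted by the 4.5 h value; filled symbols have an edgeR adjusted p under 0.05 and an asterisk marks units with no intron. lsm4, prp3, prp17 and cwf7 are filled at both times, prp43 and cwf19 are filled on the left at 2.5 h, and 38 of the 51 squares lie to the right of 0.

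Among the early genes the Lsm ring of U6 held the member with the largest rise at 4.5 h. lsm4 (SPBC30D10.06, chrII:3086149-3089031, minus strand), a protein of both Lsm rings, had 66.5 and 54.0 CPM at 0 h, 138 and 124 CPM at 2.5 h and 145 and 171 CPM at 4.5 h. All 4 libraries of the depleted cells lay above both 0 h libraries. It rose at 2.5 h (log2 fold change 1.12, SE 0.17, adjusted p = 0.0114) and at 4.5 h (log2 fold change 1.39, SE 0.18, adjusted p = 0.00752). lsm8 (SPCC1840.10, chrIII:2277879-2280288, plus strand), the protein that marks the nuclear ring, shares its unit with csl4, and the unit had 136 and 172 CPM at 0 h, 128 and 114 CPM at 2.5 h and 188 and 213 CPM at 4.5 h. Its 2.5 h libraries were the lowest and its 4.5 h libraries the highest. Neither difference from 0 h passed the test (log2 fold changes -0.35 and 0.38, adjusted p = 0.21 and 0.172), but the unit was higher at 4.5 h than at 2.5 h (log2 fold change 0.73, SE 0.17, adjusted p = 0.0487). lsm2 (SPCC1620.01c, chrIII:2143458-2144982, minus strand), another protein of both rings, went the same way, with 65.5 and 68.9 CPM at 0 h, 48.2 and 45.4 CPM at 2.5 h and 83.5 and 70.3 CPM at 4.5 h. It too was higher at 4.5 h than at 2.5 h (log2 fold change 0.72, SE 0.16, adjusted p = 0.0444) and differed from 0 h by -0.52 and 0.19 (adjusted p = 0.0684 and 0.424).

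The remaining Lsm genes differed most between the 0 h libraries. lsm6 had 22.7 and 6.88 CPM at 0 h, 15.6 and 10.8 CPM at 2.5 h and 32.6 and 28.2 CPM at 4.5 h. lsm5 had 12.3 and 4.65 CPM at 0 h, 11.0 and 7.40 CPM at 2.5 h and 11.6 and 11.4 CPM at 4.5 h. lsm7 had 28.1 and 13.3 CPM at 0 h, 38.5 and 29.6 CPM at 2.5 h and 32.9 and 35.5 CPM at 4.5 h. In all 3 the 0 h replicates stood at least 2-fold apart, replicate 1 above replicate 2, and these are the only 3 of the 51 genes where they did. lsm3 had 30.7 and 18.5 CPM at 0 h, 29.5 and 20.1 CPM at 2.5 h and 27.7 and 27.5 CPM at 4.5 h, with its 0 h and 2.5 h libraries overlapping. None of these 4 passed the test at either time. lsm6, lsm5, lsm7 and lsm3 had log2 fold changes of 1.04, 0.44, 0.72 and 0.17 at 4.5 h (adjusted p = 0.259, 0.56, 0.217 and 0.739). Over the 8 Lsm genes, lsm1 included, the median log2 fold change at 4.5 h was 0.58, all 8 values were above 0 and 2 were called higher. It was 1.22 without 0 h replicate 1 and 0.36 without 0 h replicate 2. At 2.5 h the median was 0.07 with 1 called higher. It was 0.86 without 0 h replicate 1 and -0.24 without 0 h replicate 2. Its sign thus rested on which 0 h library was kept. Of all coding units 7.65% were called higher at 2.5 h and 7.38% at 4.5 h.

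Of the tri-snRNP genes, prp3 and prp28 rose. prp3 (SPAC29E6.02, chrI:4403900-4409072, plus strand), a protein of the U4/U6 snRNP, had 136 and 158 CPM at 0 h, 294 and 353 CPM at 2.5 h and 224 and 240.3 CPM at 4.5 h. Its highest values were at 2.5 h, and all 4 depleted libraries lay above both 0 h ones. It rose at 2.5 h (log2 fold change 1.14, SE 0.17, adjusted p = 0.00987) and at 4.5 h (log2 fold change 0.66, SE 0.17, adjusted p = 0.0433). The 4.5 h value was not called with DESeq2 size factors (adjusted p = 0.079), with library totals (0.141) or by DESeq2 (0.0547). prp28 (SPCC63.11, chrIII:857030-859280, plus strand), the helicase that releases U1 from the 5′ splice site, had 112 and 122 CPM at 0 h, 167 and 166 CPM at 2.5 h and 213 and 247 CPM at 4.5 h. The 3 times did not overlap, and the 4.5 h libraries were highest. It rose at 4.5 h (log2 fold change 0.98, SE 0.14, adjusted p = 0.0109), while its 2.5 h value of 0.51 had an adjusted p of 0.0585. prp1, prp31, prp38 and prp4 did not pass the test at either time, with log2 fold changes of -0.27 to 0.09 at 2.5 h and -0.32 to 0.56 at 4.5 h; they are named here to complete the group.

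None of the 6 genes of U1, U2AF and U2 passed the test at either time. prp40, a U1 protein whose unit also holds hrp3, had 585 and 669 CPM at 0 h, 452 and 483 CPM at 2.5 h and 419.9 and 435 CPM at 4.5 h. Its depleted libraries were all below both 0 h libraries, with log2 fold changes of -0.42 and -0.55 (adjusted p = 0.11 and 0.0531), and DESeq2 called it lower at 4.5 h (adjusted p = 0.0167). Both introns of that unit belong to hrp3. prp39, another U1 protein, had 109 and 88.8 CPM at 0 h, 69.2 and 62.3 CPM at 2.5 h and 95.2 and 106 CPM at 4.5 h, so that only the 2.5 h libraries stood apart (log2 fold change -0.59, adjusted p = 0.0608; by DESeq2 0.0126). The 3 U2 genes prp10, prp11 and prp12 and the U2AF gene prp2 all had 4.5 h libraries above both 0 h ones, with log2 fold changes of 0.21 to 0.40 and adjusted p-values of 0.143 to 0.353.

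In the catalytic spliceosome, the units of 3 genes of the Prp19 complex and of 1 second-step factor rose. prp17 (SPBC6B1.10, chrII:2651597-2656483, plus strand), which acts before the second step, had 121 and 112 CPM at 0 h, 221 and 300.4 CPM at 2.5 h and 209.8 and 231 CPM at 4.5 h. The depleted libraries were all above the 0 h ones, and the mean was highest at 2.5 h. It rose at 2.5 h (log2 fold change 1.17, SE 0.19, adjusted p = 0.0121) and at 4.5 h (log2 fold change 0.93, SE 0.19, adjusted p = 0.024). prp18, also a second-step factor, had log2 fold changes of 0.34 and 0.21 (adjusted p = 0.22 and 0.445). cwf7, the counterpart of human SPF27 in the Prp19 complex, lies in a unit of 3 genes with SPBC28F2.05c and mdm12 (SPBC28F2.04c, chrII:1576290-1580241, minus strand), which had 54.1 and 43.8 CPM at 0 h, 109 and 109 CPM at 2.5 h and 93.8 and 118 CPM at 4.5 h. That unit rose at both times (log2 fold changes 1.15, SE 0.18, adjusted p = 0.012, and 1.12, SE 0.18, adjusted p = 0.0143), but cwf7's coding sequence spans 15.3% of it, so the reads cannot be assigned to cwf7.

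cwf15 (SPBC337.06c, chrII:1040987-1042015, minus strand), the counterpart of budding yeast Cwc15, had 26.7 and 25.8 CPM at 0 h, 36.0 and 32.3 CPM at 2.5 h and 50.1 and 62.6 CPM at 4.5 h. Its libraries were in order of time without overlap. It rose at 4.5 h (log2 fold change 1.10, SE 0.18, adjusted p = 0.0128), and its 2.5 h value of 0.38 did not pass (adjusted p = 0.19). prp45 (SPCC188.11, chrIII:1502525-1504531, plus strand), the counterpart of human SKIP, had 72.5 and 87.0 CPM at 0 h, 84.6 and 89.9 CPM at 2.5 h and 123 and 124 CPM at 4.5 h, with the 4.5 h libraries apart from the rest. It rose at 4.5 h (log2 fold change 0.63, SE 0.15, adjusted p = 0.0387), but was not called with DESeq2 size factors (adjusted p = 0.073), with library totals (0.145) or by DESeq2 (0.0555). cwf2 (SPAC3A12.11c, chrI:1439236-1440588, minus strand), an RNA-binding protein of the same group, had 43.3 and 48.1 CPM at 0 h, 40.4 and 30.9 CPM at 2.5 h and 61.1 and 75.8 CPM at 4.5 h: the 2.5 h libraries were below both 0 h libraries and the 4.5 h libraries above them. Neither difference from 0 h passed (log2 fold changes -0.36 and 0.58, adjusted p = 0.267 and 0.0942), but it was higher at 4.5 h than at 2.5 h (log2 fold change 0.94, SE 0.20, adjusted p = 0.0436).

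cwf29, the counterpart of budding yeast Ist3 in the RES complex, lies in the sole splicing factor unit lower at 4.5 h. Its coding sequence with introns spans 37.6% of that unit, so the reads cannot be assigned to cwf29. Its unit, shared with snx3 (SPBC887.05c, chrII:3548753-3550730, minus strand), had 112 and 142 CPM at 0 h, 119 and 104 CPM at 2.5 h and 77.8 and 84.0 CPM at 4.5 h. Both 4.5 h libraries were below all others. The fall stood close to the threshold (log2 fold change -0.65, SE 0.17, adjusted p = 0.0493) and its adjusted p was 0.0506 with a replicate block, 0.0591 with a stricter filter and 0.0682 with library totals. 3 of the 4 introns of that unit belong to snx3. The other RES gene, cwf26, had 19.3 and 12.9 CPM at 0 h, 24.3 and 22.98 CPM at 2.5 h and 23.7 and 22.4 CPM at 4.5 h and did not pass (log2 fold changes 0.56 and 0.52, adjusted p = 0.159 and 0.181). Of the other step factors, cwf28, which copurifies with the Cdc5 complex, had the lowest values, -0.58 and -0.48 (adjusted p = 0.115 and 0.17). cwf24, the counterpart of budding yeast Cwc24, had 60.8 and 90.4 CPM at 0 h, 58.4 and 63.4 CPM at 2.5 h and 55.1 and 55.6 CPM at 4.5 h. Its 4.5 h libraries were below both 0 h libraries, but neither difference from 0 h passed (log2 fold changes -0.31 and -0.45, adjusted p = 0.357 and 0.196).

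The 4 release genes held both of the genes that fell at 2.5 h. prp43 (SPBC16H5.10c, chrII:2279715-2282191, plus strand) had 239.9 and 265 CPM at 0 h, 151 and 172 CPM at 2.5 h and 279 and 296 CPM at 4.5 h. Its 2.5 h libraries were below the other 4, and its 4.5 h libraries were the highest. It fell at 2.5 h (log2 fold change -0.65, SE 0.15, adjusted p = 0.0327; adjusted p = 0.0716 with library totals) and its 4.5 h value did not pass (log2 fold change 0.18, SE 0.15, adjusted p = 0.422), and it was higher at 4.5 h than at 2.5 h (log2 fold change 0.83, SE 0.15, adjusted p = 0.0317). cwf19 (SPAC30D11.09, chrI:1101692-1103794, minus strand), the counterpart of budding yeast Drn1 on the lariat spliceosome, had 47.8 and 57.3 CPM at 0 h, 30.4 and 31.1 CPM at 2.5 h and 39.2 and 40.6 CPM at 4.5 h. All depleted libraries were below both 0 h libraries, the 2.5 h ones most. It fell at 2.5 h (log2 fold change -0.77, SE 0.16, adjusted p = 0.0253), and its 4.5 h value was -0.40 (adjusted p = 0.139). A noncoding unit on the opposite strand, SPNCRNA.712, overlaps 92.1% of the cwf19 unit and rose at 2.5 h (log2 fold change 1.31, adjusted p = 0.0198). prp22, the helicase that releases the mRNA, had log2 fold changes of 0.01 and 0.08 (adjusted p = 0.983 and 0.759). SPNCRNA.724, opposite 88.7% of the prp22 unit, rose at 2.5 h as well (log2 fold change 2.14, adjusted p = 0.00636). No unit lies opposite prp43. A link between opposite units and the changes of these genes was not tested. cwf23, a J-domain protein gene whose unit also holds SPCP31B10.02, had 56.1 and 62.0 CPM at 0 h, 107 and 52.5 CPM at 2.5 h and 65.7 and 70.3 CPM at 4.5 h, with 2.5 h replicate 1 apart from the rest.

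lsm1 (SPBC3D6.08c, chrII:1283339-1285220, minus strand), of the cytoplasmic ring, had 41.8 and 21.9 CPM at 0 h, 67.3 and 63.4 CPM at 2.5 h and 67.6 and 79.6 CPM at 4.5 h. All depleted libraries were above both 0 h libraries, which themselves differed by nearly as much as 2-fold. It rose at 4.5 h (log2 fold change 1.21, SE 0.31, adjusted p = 0.0457), and at 2.5 h its log2 fold change of 1.04 had an adjusted p of 0.0691 by edgeR and 0.0179 by DESeq2.

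**Figure D2:**
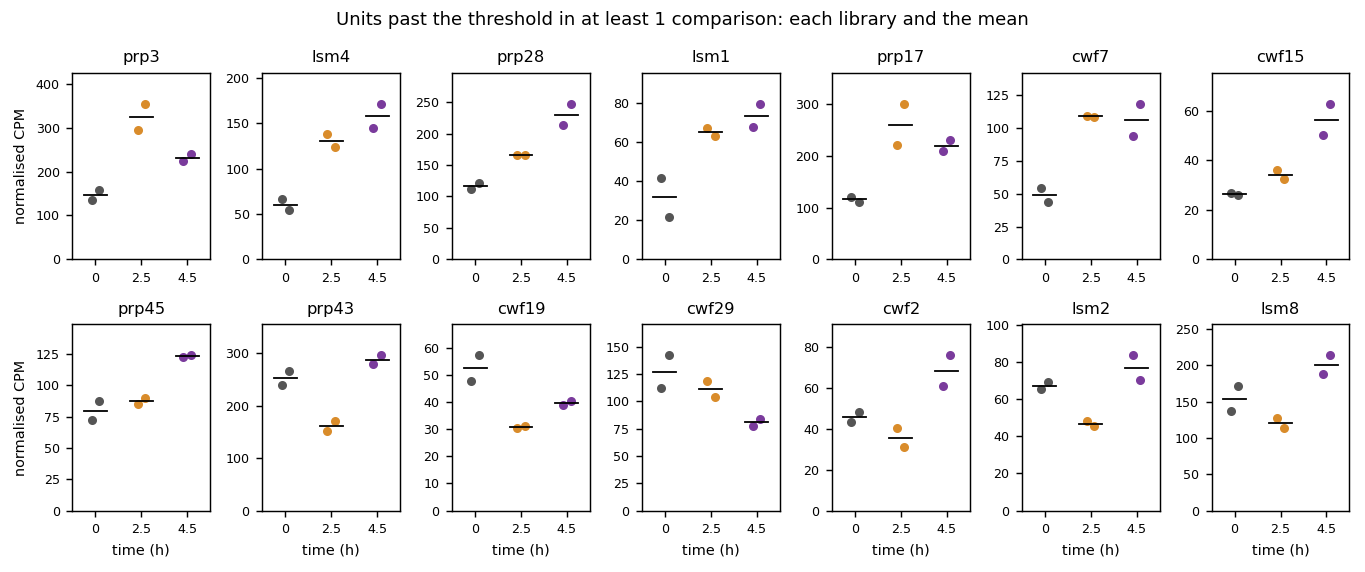
Scaled CPM of each library (points) and the mean (line) at 0, 2.5 and 4.5 h for the 14 units with an edgeR adjusted p under 0.05 in at least 1 comparison, each panel with its own axis from 0. prp3 and prp17 had their highest mean at 2.5 h, lsm4, prp28, cwf15 and prp45 were highest at 4.5 h, and prp43, cwf2, lsm2 and lsm8 had their lowest libraries at 2.5 h and their highest at 4.5 h.

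The direct comparison of 4.5 h with 2.5 h uses no 0 h value, although the 0 h libraries enter the estimate of the spread that all 6 share. Here 4 genes were higher at 4.5 h and none lower: cwf2, prp43, lsm8 and lsm2, by 1.64-fold to 1.92-fold. Among all units 10.3% were called, 3.34% higher and 6.91% lower, and among coding units 3.81% and 6.1%. The median log2 fold change of the 51 genes was 0.26, against -0.01 over all units tested and 0.04 over coding units. This median was 0.23 to 0.28 with any 1 library left out. Both 4.5 h libraries lay above both 2.5 h libraries for 30 genes, below both for 5, and overlapped them for 16. How often this held over all units was not counted. All 4 values stayed positive under the other scalings, but the calls numbered 2 with DESeq2 size factors and 0 when scaled to library totals; DESeq2, which changes the test as well, called 7. Leaving out single libraries also moved the number called. It was 18 without both 0 h libraries. The share of all units called was not counted for that fit or for the other settings. At an unadjusted p under 0.05 there were 15 genes, against 14 at 2.5 h and 13 at 4.5 h in the comparisons with 0 h. The share of all units at that looser threshold was not counted, so these numbers do not set the 51 genes apart.

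Early minus catalytic, the medians differed by 0.142 at 2.5 h and 0.244 at 4.5 h. The same difference in median log2 CPM had an SD of 0.159 between replicates, so the order of these gaps was not resolved. At 4.5 h the early genes had a median log2 fold change of 0.36 (17 of 19 above 0, 3 called higher, 0 lower) and the catalytic genes 0.12 (16 of 26 above 0, 4 higher, 1 lower). At 2.5 h the medians were 0.00 for the early genes (2 higher, 0 lower) and -0.14 for the catalytic genes (2 higher, 0 lower). Of all coding units 7.38% were called higher and 8.3% lower at 4.5 h, and 7.65% and 5.85% at 2.5 h. From 2.5 h to 4.5 h the early and catalytic medians were 0.32 and 0.19. These are descriptions with no test of the difference between the parts. Without 0 h replicate 1 the 4.5 h medians were 0.16 for the early and -0.04 for the catalytic genes, and at 2.5 h the difference of early minus catalytic changed sign with the libraries left out (-0.12 to 0.14). With the Lsm genes left out of the early part and the U5 and RES genes out of the catalytic part, early minus catalytic at 4.5 h was 0.131, against 0.244 with them.

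Units with introns had higher medians than units without, against 0 h. The 2 groups differ in more than introns. All 8 Lsm genes have introns, as do all 6 units of 1 gene that run at least 1000 bases past the stop codon. The part of introns apart from these traits was not tested. At 4.5 h the 34 units with introns had a median of 0.31 (7 called higher, 1 lower) and the 17 without introns 0.09 (1 higher, 0 lower). At 2.5 h the medians were 0.01 (4 higher, 1 lower) and -0.22 (0 higher, 1 lower). From 2.5 h to 4.5 h they were close, 0.23 with introns and 0.27 without. Over all coding units the medians with and without introns were -0.01 and -0.04 at 4.5 h, and -0.08 and -0.05 at 2.5 h. Among the early genes the 13 in units with introns and the 6 in units without had medians of 0.38 and 0.28 at 4.5 h. At 2.5 h these were -0.06 and 0.03. Among the catalytic genes the gap at 4.5 h was wider, with 0.32 for the 16 in units with introns and -0.11 for the 10 in units without. Their medians at 2.5 h were -0.01 and -0.32. Of those 10 genes, cwf18 alone was above 0 at 2.5 h, and none passed the test at any time. With library totals in place of TMM the median of the 17 units without introns at 4.5 h was -0.01, and without 0 h replicate 1 it was -0.13. Without 0 h replicate 2 the 4.5 h medians were 0.29 with introns and 0.23 without, so that the difference was 0.0603, and at 2.5 h it was 0.0844. Counts per unit do not separate spliced from unspliced reads, so these values say nothing of how well the introns were removed.

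**Figure D3:**
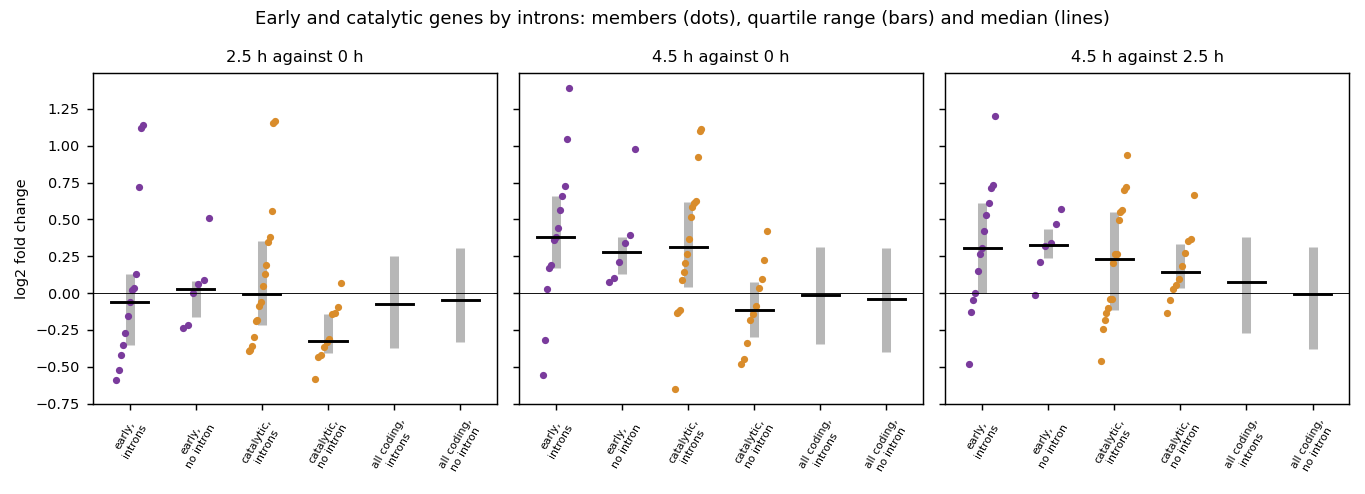
Log2 fold change of the early and catalytic genes by whether the unit has introns (dots), with the quartile range (bar) and median (line), beside the same summary of all coding units, in the 3 comparisons. At 4.5 h against 0 h the catalytic genes without introns had a median of -0.11, below the other 3 groups of splicing factors at 0.28 to 0.38, and between 2.5 h and 4.5 h all 4 medians lay above 0.

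Of the 4 genes whose units rose at 2.5 h, 3 were alone in units that run far past the coding sequence. Of the 45 genes alone in their unit, 6 had at least 1000 bases between the stop codon in RefSeq and the end of the unit: prp3 (3136 bases), prp17 (2999), lsm4 (2276), cwf14 (1528), lsm1 (1150) and prp18 (1136). This was noticed after the values were seen. At 2.5 h their median log2 fold change was 1.08, with 3 of 6 called higher, against -0.14 for the other 39 genes, with 0 higher and 2 lower. At 4.5 h the medians were 0.79 (4 of 6 higher) and 0.18 (3 of 39 higher). cwf14, the counterpart of budding yeast Bud31, was the exception, with log2 fold changes of 0.05 and -0.14. Among other coding units of 1 gene, the 218 with such a long end had a median of 0.32 at 2.5 h, 25.7% of them higher and 1.8% lower. The 3826 with a shorter end had -0.10, 6.17% of them higher and 6.5% lower. At 4.5 h the medians of these other units were 0.17 and -0.05, with 18.8% and 6.4% higher. With the division at 500 bases the 8 long and 37 short splicing factor units had medians of 0.69 and -0.14 at 2.5 h, and 0.43 and 0.18 at 4.5 h, where the difference was 0.248. The coding sequence with its introns spans 16.3% of the lsm4 unit, 31.7% of lsm1, 35.8% of prp3 and 37.6% of prp17. For these 4 the authors' own 3′ untranslated lengths are shorter than the unit's end, 613 bases for lsm4, 151 for lsm1, 2395 for prp3 and 550 for prp17. For cwf14 and prp18, which were not called, the coding share is 24.7% and 47.6%. Their authors' lengths, 1448 and 1160 bases, are near the unit's end. Where in a unit the added reads lay was not tested, since the counts hold no positions.

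**Figure D4:**
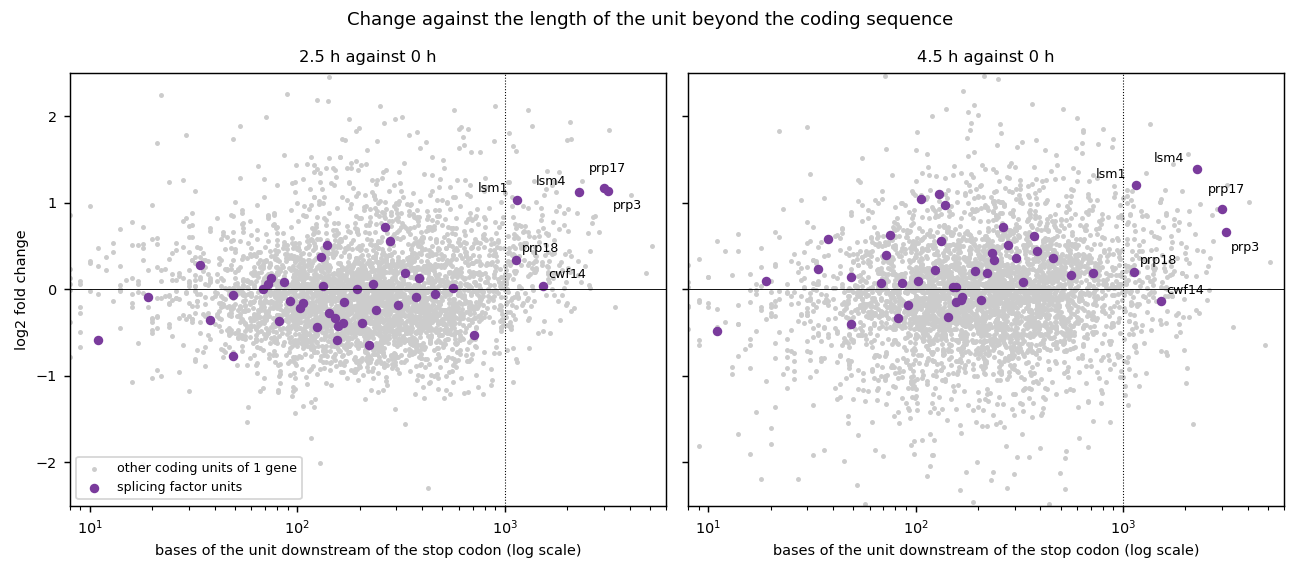
Log2 fold change at 2.5 h (left) and 4.5 h (right) against 0 h by the number of bases of the unit downstream of the stop codon (log axis), for splicing factor units (large points) and other coding units of 1 gene (small points); the dotted line is at 1000 bases. The 6 named units to its right had values of 0.05 to 1.17 at 2.5 h; 28 units beyond ± 2.5 at either time and 107 units with under 8 bases, 1 of them a splicing factor unit, are not drawn.

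All 6 of these long units overlap a unit on the other strand. For 23 of the 51 genes another unit overlaps on the opposite strand, and in 15 it covers at least 50% of the splicing factor unit. bpl1 overlaps 94.9% of the lsm4 unit, fab1 89.0% of prp17, gpi3 the whole of lsm1 and uso1 68.6% of prp3. Of the 25 opposite units tested, which are coding and noncoding, 8 were higher and 0 lower at 2.5 h, and 4 were higher and 2 lower at 4.5 h. Among all units 12.3% were higher and 5.11% lower at 2.5 h, and 10.1% and 7.8% at 4.5 h. The 2 that fell at 4.5 h were bpl1 (log2 fold change -1.53, adjusted p = 0.00681) and gpi3 (-1.12, adjusted p = 0.0131), opposite lsm4 and lsm1, which rose. uso1 and fab1, opposite prp3 and prp17, had 0.29 and 0.23 at 2.5 h (adjusted p = 0.225 and 0.471). srb6, opposite 94.6% of the prp19 unit, rose at 2.5 h (1.74, adjusted p = 0.012) while prp19, the ubiquitin ligase of the Prp19 complex, had -0.38 (adjusted p = 0.213), and atg5, opposite part of prp39, rose too (1.28, adjusted p = 0.00677). Whether the counting used the strand is not given in the sources used here, and reads from a gene and its opposite partner cannot be told apart without it.

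Other genes of the splicing machinery were read from the same fit. Of 52 further splicing genes found in the table, 5 were higher and 4 lower at 2.5 h, 5 higher and 2 lower at 4.5 h, and 5 higher and 1 lower from 2.5 h to 4.5 h. Among all units the shares called were 12.3% higher and 5.11% lower at 2.5 h, 10.1% and 7.8% at 4.5 h, and 3.34% and 6.91% from 2.5 h to 4.5 h. Their median log2 fold changes were -0.07, 0.19 and 0.34, where those of the 51 prp, cwf and lsm genes were -0.09, 0.21 and 0.26. smd3, a Sm ring protein, had 9.41 and 4.95 CPM at 0 h, 21.6 and 17.1 CPM at 2.5 h and 30.4 and 27.3 CPM at 4.5 h, all depleted libraries above the 0 h ones, and rose at both times (log2 fold changes 1.44 and 2.01, adjusted p = 0.0337 and 0.0146). smb1, another Sm protein, had 87.4 and 68.1 CPM at 0 h, 42.9 and 40.2 CPM at 2.5 h and 72.5 and 75.3 CPM at 4.5 h, and fell at 2.5 h (log2 fold change -0.90, SE 0.17, adjusted p = 0.0199), and its 4.5 h value did not pass (-0.07, SE 0.17, adjusted p = 0.809). saf1, tls1 and ntr2 rose at both times as well, with 1.49, 1.81 and 0.93 at 2.5 h and 0.80, 0.99 and 0.92 at 4.5 h, the largest of these adjusted p-values being 0.0413. The U2 genes sap49 and lea1 fell at 2.5 h (-0.90 and -0.80, adjusted p = 0.0254 and 0.0492), as did rna4 (-0.65, adjusted p = 0.0333). lkh1, a kinase of SR-type proteins, rose at 2.5 h (0.99, adjusted p = 0.0133) and was below 0 h at 4.5 h (-0.62, adjusted p = 0.0499).

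At 4.5 h the branch point binding protein gene bpb1 rose (0.53, adjusted p = 0.0377) and cyp1, a cyclophilin gene, fell (-1.16, adjusted p = 0.0162). From 2.5 h to 4.5 h the 5 higher were smb1, bpb1, sap145, sap49 and cdc5, by 0.69 to 0.88 on the log2 scale, with adjusted p-values of 0.0347 to 0.0431. lkh1 was the 1 lower (-1.61, adjusted p = 0.0152).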

How the data were processed

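Newly made RNA was counted per transcription unit in 6 libraries, 2 at each of 0, 2.5 and 4.5 h. The deposited count files hold whole-number read counts per unit, not normalised, 1 file per library. Per the labels' protocols, libraries were built from purified labelled RNA with the NuGen Ovation Universal kit. The submitters' processing notes name SAMtools, STAR 2.3.0 and ASM294v2. How reads were counted, with or without strand, is not given in the sources used here. A table from the authors gives each unit's class, genes, introns and kinetic scores, and the deposited half-life score was used only to rank units.

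Counts were tested with edgeR 4.0.16 in R 4.3.3 (filterByExpr, 276 units left out; TMM; 1 robust quasi-likelihood fit over all 6 libraries with time as the term and 3 residual degrees of freedom). All tests are two-sided, and the adjustment (Benjamini-Hochberg, threshold 0.05) covers all 5208 units tested. The scripts were checked on simulated counts. Alternatives were DESeq2 1.42.0, 2 other scalings, 2 other filters, a fit of the compared times alone, a replicate block, units of 1 gene alone, and each library left out. With 2 libraries a group, p-values measure the spread between these libraries, and a lone library is assumed to vary like the others.

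Gene symbols came from RefSeq, where 5028 of 5062 gene identifiers matched. 4770 of 4912 introns had the same coordinates as an annotated intron, and 4894 began with GT and ended with AG. The members, roles and lists were chosen with earlier results of these data known. prp24 was given its role, and sad1 dropped from the list of further splicing genes, after the files were read. Named genes are those past the threshold in any comparison, the 5 highest and 5 lowest at each time against 0 h with a mean count of at least 50, every lsm gene, and the called genes of the further list. Other members are named to complete a group or as the end of a range.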

Additional observations from a re-analysis of the deposited data

Results flagged for a closer look

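For 4 genes the change against 0 h differed between 4.5 h and 2.5 h, by the direct edgeR test of the later against the earlier libraries. The difference between the changes, on the log2 scale, was 0.94 for cwf2 (0.58 at 4.5 h and -0.36 at 2.5 h), 0.83 for prp43 (0.18 and -0.65), 0.73 for the lsm8 and csl4 unit (0.38 and -0.35) and 0.72 for lsm2 (0.19 and -0.52). All 4 were below 0 h at 2.5 h and above it at 4.5 h. Of these changes against 0 h, that of prp43 at 2.5 h passed the test.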

How the results depend on the processing

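Of 494 single-gene values recomputed under another setting, 373 kept their direction and side of the threshold, 84 lost and 26 gained significance, and 11 changed sign. Of 129 recomputed counts of called genes and differences of group medians, 28 moved, counts by over 1.5 times and differences by over 1 SD between replicates. The differences by downstream span, divided at 500 bases, were 0.829 at 2.5 h and 0.248 at 4.5 h. The 11 sign changes were all of lsm3, lsm5 and lsm6. At 2.5 h lsm3 was -0.0329 with DESeq2 size factors, -0.0333 by DESeq2, -0.0002 without the filter, and -0.30 to 0.32 with 1 library left out. Left-out values of lsm3 at 4.5 h were -0.15 to 0.47, of lsm5 -0.41 to 0.89 at 2.5 h and -0.10 to 1.19 at 4.5 h, and of lsm6 -0.78 to 0.84 at 2.5 h. The number of genes called at 4.5 h against 0 h was 4 from those times alone, where the main fit had 9. Against 2.5 h it was 2 with DESeq2 size factors, 0 with library totals, 7 by DESeq2 and 18 from those times alone, where the main fit had 4. With 1 library left out it was 0 to 29 at 2.5 h, 0 to 19 at 4.5 h and 0 to 20 between them. Early minus catalytic medians were then -0.12 to 0.14, 0.16 to 0.24 and 0.12 to 0.19, and intron minus no intron medians 0.0844 to 0.412, 0.0603 to 0.251 and -0.12 to 0.0273. The cause of these shifts was not tested, beyond the fewer libraries in such fits. Same-numbered libraries had correlations of their deviations of 0.46, 0.21 and 0.10, and with 2 numbers this does not show pairing. With a replicate block 6 genes were called at 2.5 h, 8 at 4.5 h and 3 between them, and cwf29 (adjusted p = 0.0506) and lsm8 (0.0503) were no longer called. The lowest level at 0 h, where depth bears most, was that of prp38, 3.98 and 3.14 CPM.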
